A study of Mus musculus with 1 sample.

Results

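The genes described are 10 regulators of the G1 phase of the cell cycle, the D-type cyclins Ccnd1, Ccnd2 and Ccnd3, the kinases Cdk4 and Cdk6, the inhibitors Cdkn1a, Cdkn1b, Cdkn2c and Cdkn2d, and the retinoblastoma gene Rb1. They were found by symbol in the gene list of a single-cell RNA sequencing library of mouse testis, which names 27998 genes, of which 18722 had at least 1 UMI (unique molecular identifier, a tag that lets each captured RNA molecule be counted once). All 10 were listed and all 10 had UMIs. The library was made from Wild-type C57BL/6 mice at postnatal day 8. Cells of 3 mice were combined in equal numbers in 1 tube, so the mice cannot be told apart and there are no replicates. The cells were selected with THY1+ MACS beads, which enrich undifferentiated spermatogonia, and a small number of unselected testis cells was added back. The library of Zscan2-KO mice was not analysed here.

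In the G1 phase, D-type cyclins bind and activate the kinases CDK4 and CDK6, which begin the phosphorylation of RB1 and so release the E2F transcription factors that drive entry into S phase. INK4 proteins, among them p18 (Cdkn2c) and p19 (Cdkn2d), bind CDK4 and CDK6 directly, whereas the CIP/KIP proteins p21 (Cdkn1a) and p27 (Cdkn1b) bind cyclin-kinase complexes more broadly. In the testis, the pathway is known for its part in the divisions of spermatogonial stem cells (SSCs), in their maintenance through RB1 and in the end of Sertoli cell proliferation, to which p27 contributes.

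The library held 970 barcodes and 11358045 UMIs, with 2655 to 44915 UMIs per barcode (median 9115). After filtering, 920 cells were kept, of which 324 fell in germ cell clusters and 596 in somatic clusters. Of the germ cells, 116 were SSC-like, 75 were progenitor-like and 133 were differentiating-like, and the somatic cells comprised 186 stromal-like, 255 Sertoli-like, 35 macrophage-like and 94 peritubular myoid-like cells. A further 26 somatic cells formed a cluster left unnamed, since its leading genes were those of natural killer cells and of vessel walls. Clusters were named from lists of markers, so marker levels are no separate check of the names. Among the markers, Neurog3 was at 52.0 CPM (UMIs per 1000000 UMIs of the class) in progenitor-like cells and 2.79 CPM in SSC-like cells. Kit was at 85.4 CPM in differentiating-like cells and 8.38 CPM in SSC-like cells, and Sox9 was at 456 CPM in Sertoli-like cells. The SSC markers Lhx1 and Bcl6b were among the 10 leading genes of the SSC-like cluster. The progenitor-like cluster was led by the hemoglobin gene Hba-a1 before Neurog3, and a single barcode gave 3604 of its 3632 Hba-a1 UMIs. The median depth was 21999 UMIs per cell in SSC-like cells, 19301 in progenitor-like, 10993 in differentiating-like, 8343 in Sertoli-like, 8370.5 in stromal-like, 7446 in peritubular myoid-like and 13010 in macrophage-like cells. When all cells were clustered together, a germ cell cluster of 61 cells had a median of 3994 UMIs, so the germ cells included cells of low depth. The 10 genes and 24 further genes of the pathway were left out of the genes used for clustering, so they did not define the classes directly, but the same cells were clustered and measured. With 1 library no test was possible. Levels are given in CPM of UMIs summed over the cells of a class, and a gene was called when its level differed 2-fold or more between classes that together held at least 50 of its UMIs. Intervals are exact and at the 95% level, and they measure counting error alone. Each captured molecule gives 1 tag from its 3′ end whatever its length, so levels of different genes were set side by side without division by length.

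The promoters of Cdkn2c and Cdkn2d are shown because these inhibitors were the members called between somatic cells scored as G1 and as S or G2M in both Sertoli-like and stromal-like cells, as described below. Cdkn2c (ENSMUSG00000028551) lies on the minus strand of chromosome 4 of GRCm38 from 109660876 to 109667189, and Cdkn2d (ENSMUSG00000096472) on the minus strand of chromosome 9 from 21288410 to 21291407. Each window runs from 250 bases before to 50 bases after an annotated start in RefSeq (GRCm38.p6), read in the direction of the gene, and the capitals mark GGGCGG (the GC box bound by SP1 and its relatives) on either strand. The windows of Cdkn2c lie at chr4:109666707-109667006 and, for a start further downstream, at chr4:109665323-109665622, and that of Cdkn2d lies at chr9:21291160-21291459.
Cdkn2c, upstream start: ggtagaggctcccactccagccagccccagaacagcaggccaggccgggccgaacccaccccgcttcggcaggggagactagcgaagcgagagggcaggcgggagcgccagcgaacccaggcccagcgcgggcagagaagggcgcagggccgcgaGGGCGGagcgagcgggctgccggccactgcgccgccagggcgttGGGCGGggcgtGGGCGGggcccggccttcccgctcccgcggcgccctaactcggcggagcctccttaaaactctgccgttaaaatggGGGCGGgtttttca
Cdkn2c, downstream start: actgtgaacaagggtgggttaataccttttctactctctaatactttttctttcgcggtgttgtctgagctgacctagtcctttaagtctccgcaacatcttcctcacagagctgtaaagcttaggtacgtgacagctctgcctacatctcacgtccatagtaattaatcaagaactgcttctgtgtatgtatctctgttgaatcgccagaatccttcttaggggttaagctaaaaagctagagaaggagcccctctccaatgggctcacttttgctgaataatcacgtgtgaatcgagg
Cdkn2d: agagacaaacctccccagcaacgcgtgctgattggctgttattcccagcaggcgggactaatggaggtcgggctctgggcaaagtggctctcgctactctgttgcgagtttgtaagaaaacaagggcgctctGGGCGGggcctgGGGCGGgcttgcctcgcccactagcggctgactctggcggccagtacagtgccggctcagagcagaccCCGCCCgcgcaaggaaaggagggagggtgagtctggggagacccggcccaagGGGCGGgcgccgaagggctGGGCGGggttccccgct
The upstream window of Cdkn2c held GGGCGG 4 times and 33 CpG dinucleotides, whereas the downstream window held it 0 times with 8 CpG. The window of Cdkn2d held it 5 times with 22 CpG. Promoter windows of 7 of the 10 genes were found in the table, 10 windows in all, and 7 of these 10 held GGGCGG, against 35.7% of 32851 windows of all genes. None of the 10 windows held an E2F site spelled TTTCCCGC, TTTCGCGC, TTTGCCGC or TTTGGCGC on either strand (2.26% of all windows), and none held TTTGAA, the core of the cell cycle homology region element, on either strand (17.9% of all windows). These are matches of letters and say nothing of binding.

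The D-type cyclins differed in which paralog each class used. Gene positions below are those of the GENCODE annotation of GRCm38, in which all 10 are protein-coding. Other genes overlap 7 of them on the opposite strand, among them Bysl at Ccnd3 and Tspan31 at Cdk4, and whether the counting used strand was not given in the sources used here. Ccnd2 (chromosome 6, 127125162 to 127152193, minus strand) was the main D-type cyclin of undifferentiated germ cells and of Sertoli-like cells. SSC-like cells had 713 CPM (95% interval 680 to 747), progenitor-like cells 347 CPM and differentiating-like cells 189 CPM. In the soma, Sertoli-like cells had 606 CPM (575 to 639), peritubular myoid-like cells 340 CPM and stromal-like cells 285 CPM. Macrophage-like cells held 3 Ccnd2 UMIs, or 5.81 CPM, and so stood apart from every other named class. In the order of levels, progenitor-like and peritubular myoid-like cells were the only neighbours whose ratio had an interval that included 1.

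Among the named classes, Ccnd1 (chromosome 7, 144929931 to 144939925, minus strand) was a cyclin of germ cells and macrophage-like cells. The unnamed somatic cluster had 109 CPM of Ccnd1 (64.6 to 172), from 18 UMIs in 6 of 26 cells. Differentiating-like cells had 138 CPM of Ccnd1 (120 to 156), SSC-like cells 117 CPM (104 to 131) and progenitor-like cells 60.8 CPM (48.5 to 75.4). The level of differentiating-like cells was not separated from that of SSC-like cells. Macrophage-like cells had 60.1 CPM, a level that could not be told from that of progenitor-like cells. In Sertoli-like, stromal-like and peritubular myoid-like cells only 12, 8 and 5 UMIs of Ccnd1 were counted, giving 5.23, 4.87 and 6.75 CPM. A UMI of Ccnd1 was found in 3.92% of Sertoli-like and 4.30% of stromal-like cells, and a UMI of the germ cell gene Dazl, which had 792 CPM in germ cells against 109 CPM of Ccnd1, in 13.7% and 10.2%. The ratio of the somatic to the germ level was 0.0478 for Ccnd1 in Sertoli-like and 0.0445 in stromal-like cells. The same ratios of the 6 germ cell markers ran from 0.0120 to 0.137 (median 0.0235) and from 0.0154 to 0.0958 (median 0.0275), so that these few Ccnd1 UMIs lay above the median but within the range of the markers, and could not be told apart from free RNA. Over all somatic cells the highest marker ratio was that of Taf4b, 0.0978, and those of the other markers ran from 0.0186 to 0.0473. In peritubular myoid-like cells the ratio of Ccnd1 was 0.0617, with markers from 0 to 0.0503, on 5 UMIs. In macrophage-like cells it was 0.549, with markers from 0.0147 to 0.0508.

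Ccnd3 (chromosome 17, 47505051 to 47599691, plus strand) had its highest levels in mesenchymal cells. Stromal-like cells had 320 CPM (293 to 348) and peritubular myoid-like cells 220 CPM, against 32.7 CPM for Sertoli-like cells. Germ cells lay between, since progenitor-like cells had 104 CPM, SSC-like cells 92.2 CPM and differentiating-like cells 64.0 CPM, and macrophage-like cells had 67.8 CPM. The levels of progenitor-like, SSC-like, macrophage-like and differentiating-like cells followed each other in that order with no neighbouring pair separated beyond counting error. Pairs that were not neighbours did separate. Progenitor-like cells were 1.63-fold (1.26 to 2.11) and SSC-like cells 1.44-fold (1.14 to 1.83) above differentiating-like cells. A processed pseudogene named Ccnd3-ps is annotated, and reads it may share with Ccnd3 were not examined.

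**Figure D1:**
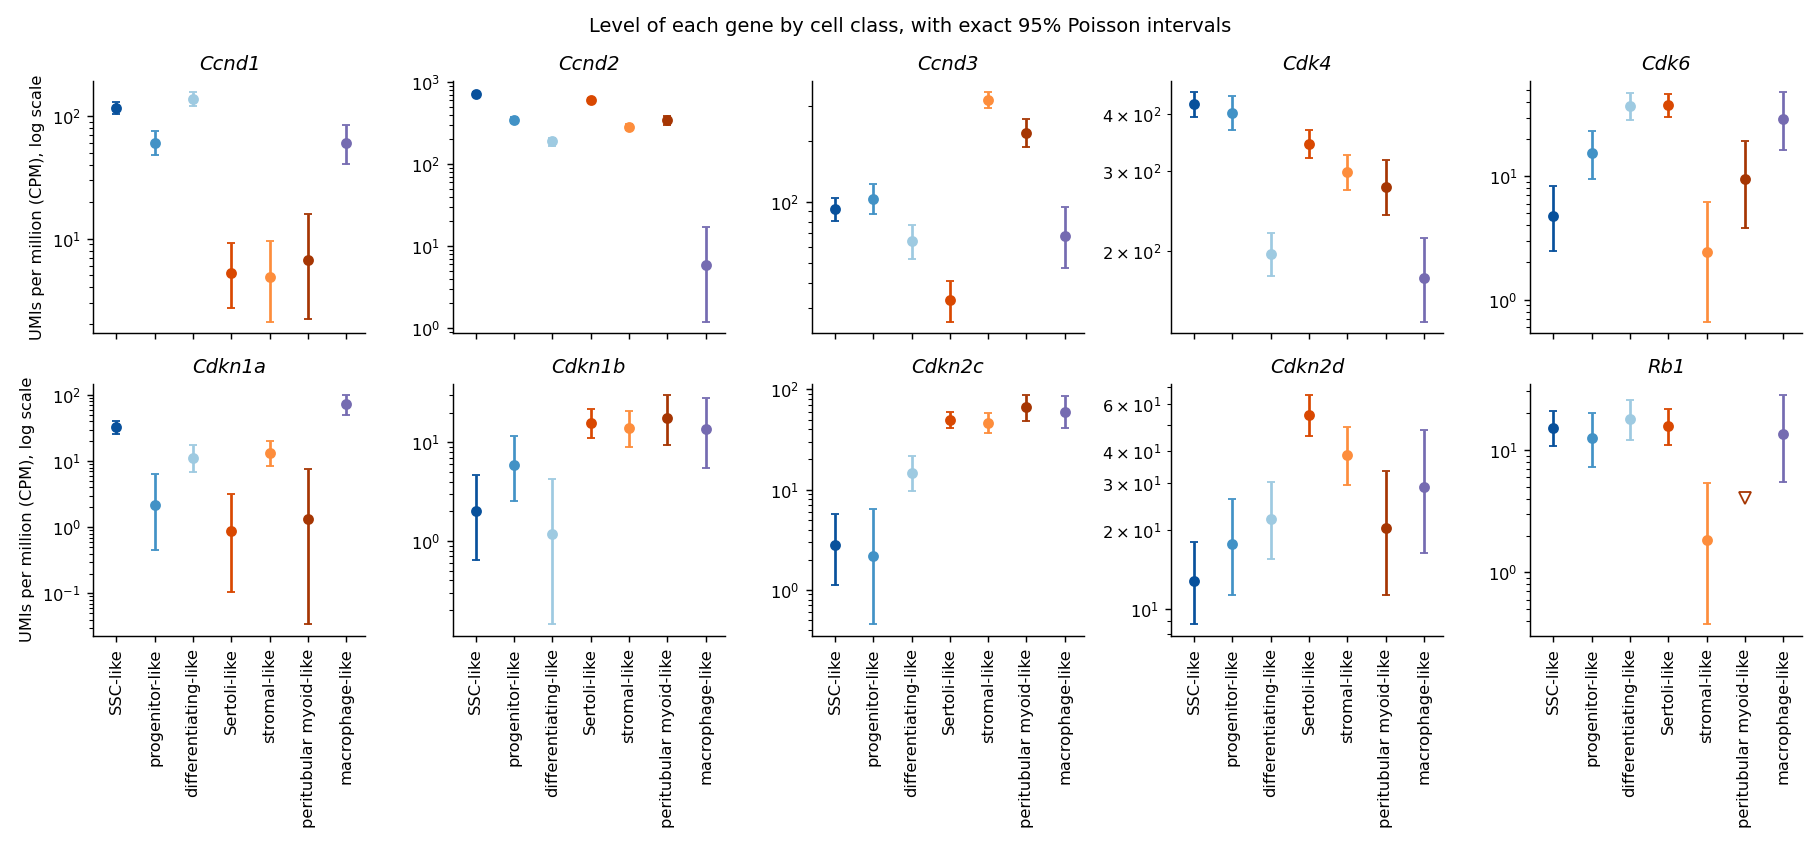
Level of each gene in CPM (log scale, with its own range for each gene) in the 7 named classes. Points are sums over all cells of a class with exact 95% Poisson intervals, and the open triangle for Rb1 marks 4.05 CPM, the level of 3 counts, in place of 0 UMIs in peritubular myoid-like cells. Among these 7 classes, Ccnd1 separates germ and macrophage-like cells from the other somatic classes, and Ccnd3 is highest in stromal-like cells. Taken over all cells of a class, Cdkn2c is higher in each of these somatic classes than in any germ class.

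Put as shares of all D-type cyclin UMIs, which do not depend on the depth of a class, Ccnd2 made up 94.1% in Sertoli-like cells (92.8 to 95.3%), 77.3% in SSC-like (75.6 to 79.0%), 67.8% in progenitor-like (64.2 to 71.2%), 60% in peritubular myoid-like (55.1 to 64.7%), 48.3% in differentiating-like (44.4 to 52.2%) and 46.8% in stromal-like cells (43.6 to 49.9%). In macrophage-like cells the share of Ccnd2 was 4.35%, with 44.9% from Ccnd1 and 50.7% from Ccnd3, on 69 UMIs. Ccnd1 gave 12.7% of these UMIs in SSC-like cells, 11.9% of those in progenitor-like cells and 35.3% of those in differentiating-like cells. Ccnd3 gave 52.4% of the D-type cyclin UMIs in stromal-like cells and 38.8% in peritubular myoid-like cells, but 5.07% in Sertoli-like cells. Summed over the 3 cyclins, SSC-like cells had 922 CPM, progenitor-like cells 512 CPM, differentiating-like cells 390.2 CPM and macrophage-like cells 134 CPM, while the other 3 somatic classes had 567 to 644 CPM.

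**Figure D2:**
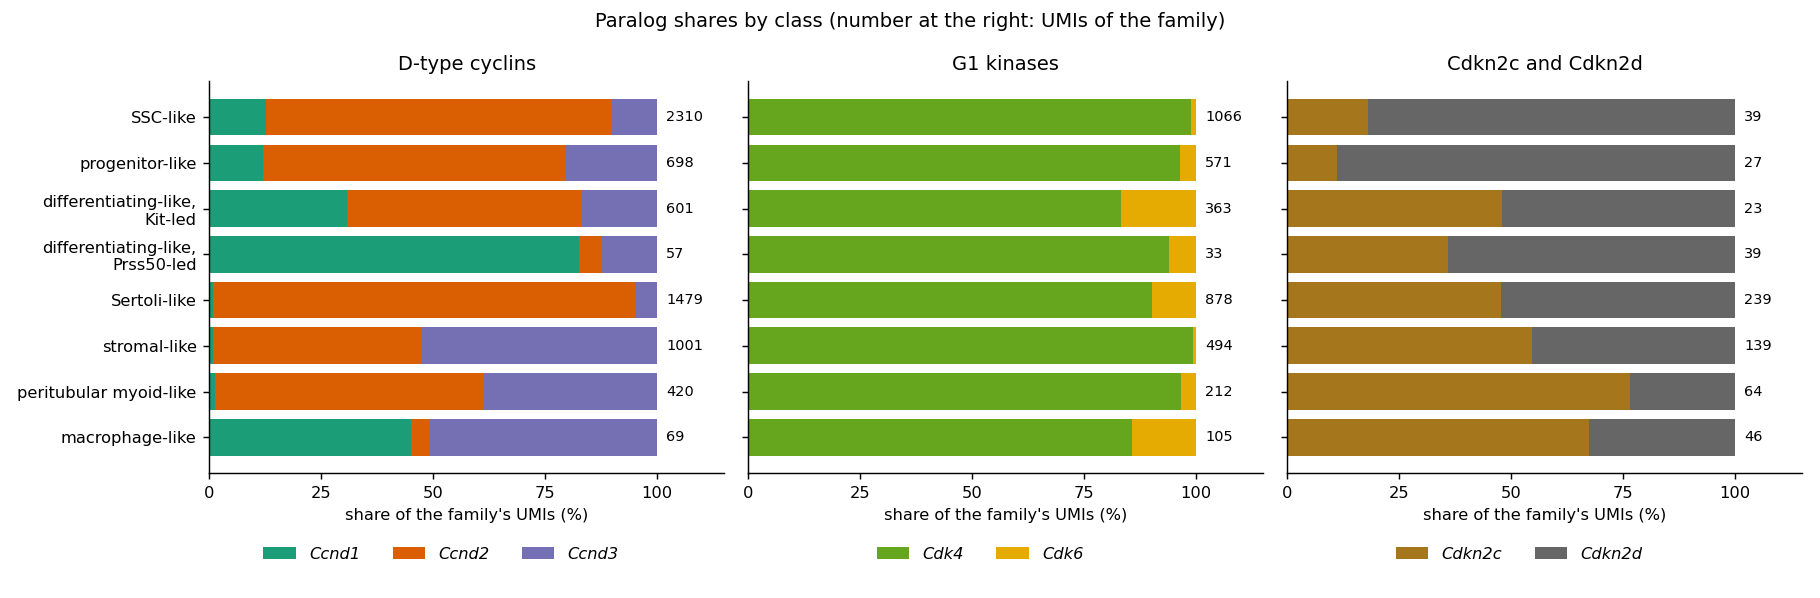
Share of UMIs (%) given by each paralog within the D-type cyclins, the G1 kinases, and the pair Cdkn2c and Cdkn2d, with the differentiating-like cells divided into their 2 clusters. The number at the right of each bar is the count of UMIs of the family. Ccnd2 gives 94.1% of D-type cyclin UMIs in Sertoli-like cells, Ccnd3 gives 52.4% in stromal-like cells, and Ccnd1 gives 82.5% in the Prss50-led cluster.

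Within single cells the paralogs were often found together. Each cell was thinned to 5000 UMIs, which left out shallower cells, 34 of 133 differentiating-like and 20 of 255 Sertoli-like cells but 4 of 116 SSC-like cells. In the thinned data, 22 of 112 SSC-like cells had UMIs of all 3 D-type cyclins, 28 had Ccnd1 and Ccnd2, 19 had Ccnd2 and Ccnd3, and 35 had Ccnd2 alone. Of 172 stromal-like cells, 95 had Ccnd2 and Ccnd3 together, 39 had Ccnd3 alone and 22 had Ccnd2 alone. Sertoli-like cells were mostly of a single kind, with Ccnd2 alone in 159 of 235 and Ccnd2 with Ccnd3 in 40. In differentiating-like cells Ccnd1 and Ccnd2 were seldom found together, since 23 of 99 had Ccnd1 alone and 22 had Ccnd2 alone, while 3 had this pair without Ccnd3 and 3 had all 3 cyclins. In macrophage-like cells Ccnd1 alone and Ccnd3 alone were found in 8 of 35 each, and 15 had no D-type cyclin UMI. The differentiating-like class held the Kit-led and the Prss50-led cluster described below. After thinning, Ccnd1 was found in 27 and Ccnd2 in 32 of 68 Kit-led cells, and in 13 and 1 of 31 Prss50-led cells. The part of the clusters in how seldom these cyclins were found together was not tested. Before thinning, a UMI of Ccnd1 was found in 81.9% and of Ccnd2 in 93.1% of SSC-like cells, and in 59.4% and 47.4% of differentiating-like cells. The thinned shares were 46.4% and 92.9% in SSC-like cells, and 40.4% and 33.3% in differentiating-like cells. A cell without a UMI may still hold the transcript, so these counts follow levels as well as the choice of paralog.

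**Figure D3:**
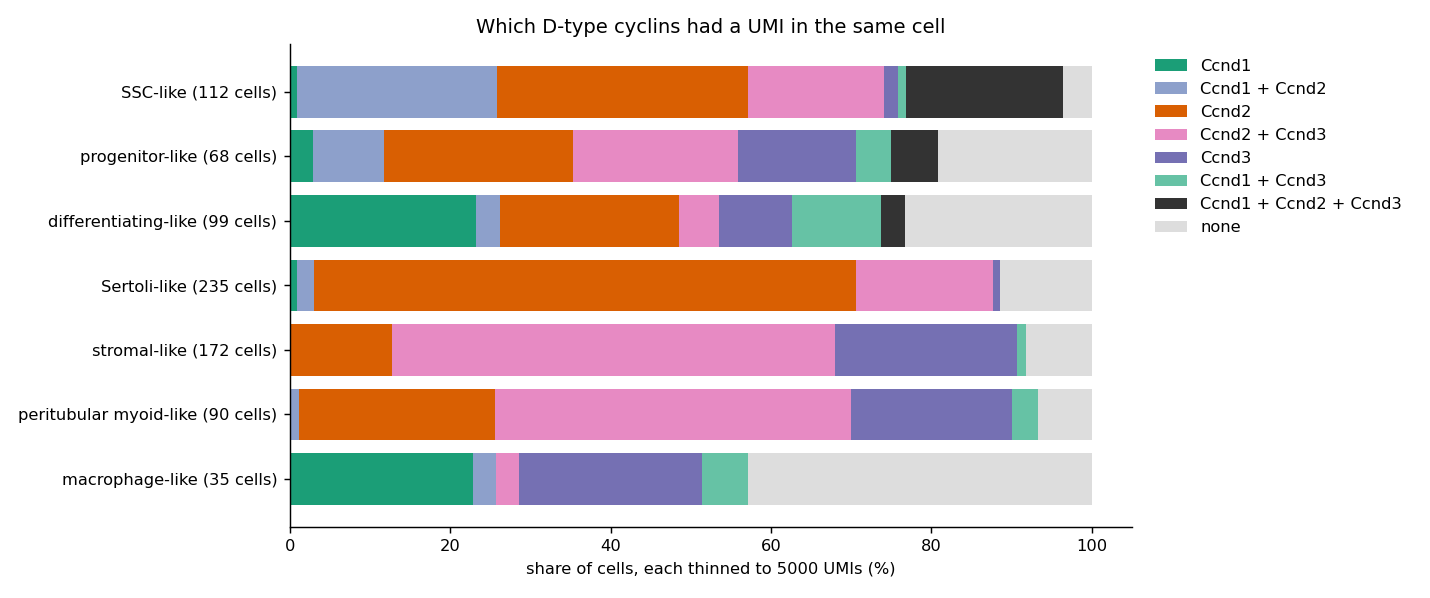
Share of cells (%) with a UMI of each combination of the D-type cyclins after thinning each cell to 5000 UMIs, by class. The combination of Ccnd2 and Ccnd3 (pink) takes 55.2% of stromal-like cells and 44.4% of those that were peritubular myoid-like, Ccnd2 alone (orange) takes 67.7% of Sertoli-like cells, and all 3 cyclins (black) were found in 19.6% of SSC-like cells.

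Of the kinases, Cdk4 (chromosome 10, 127063534 to 127067920, plus strand) was the more abundant in every class. SSC-like cells had 421 CPM and progenitor-like cells 403 CPM, which did not differ beyond counting error, followed by Sertoli-like cells with 345 CPM, stromal-like cells with 298 CPM and peritubular myoid-like cells with 277 CPM. It was lowest in differentiating-like cells with 197 CPM and macrophage-like cells with 174 CPM. Cdk6 (chromosome 5, 3341485 to 3531008, plus strand) ran the other way in the germ line. SSC-like cells held 12 UMIs of Cdk6 (4.79 CPM), progenitor-like cells 21 UMIs (15.4 CPM) and differentiating-like cells 63 UMIs (37.4 CPM). Sertoli-like cells had 37.9 CPM and macrophage-like cells 29.1 CPM, while stromal-like cells held 4 UMIs, or 2.44 CPM. The share of Cdk6 among the UMIs of both kinases was 1.13% in SSC-like (0.583 to 1.96%), 3.68% in progenitor-like (2.29 to 5.57%) and 15.9% in differentiating-like cells (12.4 to 19.9%), and the interval of each class excluded the values of the other 2. In the soma it was 9.91% in Sertoli-like, 14.3% in macrophage-like, 3.30% in peritubular myoid-like and 0.810% in stromal-like cells.

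Of the CIP/KIP inhibitors, Cdkn1a (p21, an inhibitor induced by p53 among others; chromosome 17, 29090976 to 29100727, plus strand) was uneven between classes. Macrophage-like cells had 71.7 CPM and SSC-like cells 32.7 CPM, and in the latter 33 of 116 cells held its 82 UMIs. Stromal-like cells had 13.4 CPM, from 22 UMIs in 6 of 186 cells, and differentiating-like cells had 11.3 CPM. Progenitor-like, Sertoli-like and peritubular myoid-like cells held 3, 2 and 1 UMIs. Cdkn1b (p27; chromosome 6, 134920401 to 134925513, plus strand) was low in the soma. Sertoli-like cells had 15.7 CPM, stromal-like cells 14.01 CPM, peritubular myoid-like cells 17.6 CPM and macrophage-like cells 13.6 CPM. No neighbouring pair of named classes was separated, and this held for macrophage-like and progenitor-like cells too. With so few UMIs, that does not show the somatic levels to be even. Germ cells held 15 UMIs in all, of which SSC-like cells had 5 (1.996 CPM), progenitor-like cells 8 (5.86 CPM) and differentiating-like cells 2 (1.19 CPM). Of the UMIs of this pair, Cdkn1a gave 94.3% in SSC-like cells (87.1 to 98.1%) and Cdkn1b gave 94.7% in Sertoli-like cells (82.3 to 99.4%).

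Of the INK4 inhibitors, Cdkn2c and Cdkn2d were higher in somatic cells as a whole than in germ cells. For Cdkn2c, Sertoli-like cells had 49.7 CPM, stromal-like cells 46.3 CPM, peritubular myoid-like cells 66.2 CPM and macrophage-like cells 60.1 CPM, against 2.79 CPM (7 UMIs) for SSC-like and 2.199 CPM (3 UMIs) for progenitor-like cells. Differentiating-like cells had 14.8 CPM, 5.30-fold above SSC-like cells (2.23 to 14.5) on 32 UMIs in the 2 classes. For Cdkn2d, Sertoli-like cells had 54.5 CPM and stromal-like cells 38.4 CPM. Peritubular myoid-like cells had 20.3 CPM, a level that lay between those of germ cells, which were 12.8 CPM for SSC-like, 17.6 CPM for progenitor-like and 21.9 CPM for differentiating-like cells. Cdkn2d therefore gave 82.1% of the UMIs of this pair in SSC-like cells (66.5 to 92.5%) and 88.9% in progenitor-like cells (70.8 to 97.6%), but 52.3% in Sertoli-like and 23.4% in peritubular myoid-like cells (13.8 to 35.7%). The other INK4 genes, Cdkn2a and Cdkn2b, are added here after their values were seen, since they ran the other way. Cdkn2a, whose locus also encodes ARF and whose 3′ tags do not tell the products apart, was at 256 CPM for SSC-like, 213 CPM for progenitor-like and 331 CPM for differentiating-like cells, while Sertoli-like cells held 10 UMIs (4.36 CPM), stromal-like cells 5, peritubular myoid-like cells 1 and macrophage-like cells 0. Germ cells were 75.6-fold above somatic cells in Cdkn2a (48.2 to 126) and 6.48-fold in Cdkn2b (2.91 to 17.0), the latter on 47 against 7 UMIs.

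Rb1 (chromosome 14, 73183673 to 73325822, minus strand) encodes the pocket protein that these kinases phosphorylate. Differentiating-like cells had 17.8 CPM of Rb1, Sertoli-like cells 15.7 CPM, SSC-like cells 15.2 CPM, macrophage-like cells 13.6 CPM and progenitor-like cells 12.5 CPM, and no neighbours among these 5 classes differed beyond counting error. Stromal-like cells held 3 UMIs, or 1.83 CPM, and peritubular myoid-like cells held none (0 of 94 cells, for which a limit of 3 counts allows a share of cells with a UMI of up to 3.19% and a level of up to 4.05 CPM). Sertoli-like cells were 8.58-fold above stromal-like cells (2.71 to 43.6) on 39 UMIs. They were 3.87-fold above the level that 3 counts would give in peritubular myoid-like cells. With the UMIs as counted, 36 against 0, the lower limit of the ratio was 2.99-fold. The annotated genes Gm17233 and Mir687 overlap Rb1 on the same strand.

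The first comparison asked how germ cells differ from the somatic cells of the same library. Of the 10 genes, 1 was called higher and 3 lower in germ cells, in a comparison in which 50.7% of 11027 genes were called either way, so calls among these genes were no more frequent than among genes at large. Ccnd1 was 7.93-fold higher in germ cells (6.22 to 10.2), with 109 CPM against 13.8 CPM. Of the 74 somatic Ccnd1 UMIs, 31 were in macrophage-like cells and 18 in the unnamed cluster. Cdkn2c was 8.09-fold (5.67 to 11.8), Cdkn1b 5.67-fold (3.24 to 10.6) and Cdkn2d 2.497-fold (1.95 to 3.21) lower in germ cells. The germ cell level of Cdkn2c was 0.0952 to 0.136 and that of Cdkn1b 0.154 to 0.193 of the level in each of the 3 largest somatic classes, above the highest ratio of the markers of these classes, 0.0192. The call of Cdkn2d was lost with a mitochondrial limit of 5%, with germ cells taken by a UMI of Ddx4 or Dazl, as a mean over cells and, at a log2 ratio of -0.19, among cells scored as G1. Over all settings the log2 ratio of Cdkn2c ran from -3.12 to -1.62, that of Cdkn1b from -3.17 to -1.11 and that of Ccnd1 from 2.02 to 3.34, so that the values of these 3 stayed beyond 2-fold. Among cells scored as G1, SSC-like and progenitor-like cells held 0 Cdkn2c UMIs, and 0 differentiating-like cells were scored so. The Cdkn2c value of that setting is therefore the level of 3 counts. Its Cdkn1b value rests on 5 UMIs in progenitor-like and 0 in SSC-like cells. The other 6 genes differed less than 2-fold, among them Ccnd2 with 464 CPM in germ and 406 CPM in somatic cells and Cdk4 with 349 and 302 CPM. The median log2 ratio was -0.07 over the 10 genes and 0.07 over all genes tested.

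SSC-like cells were then compared with progenitor-like cells. Ccnd2 was 2.06-fold (1.86 to 2.28) and Cdkn1a 14.9-fold (4.92 to 73.7) higher in SSC-like cells, the latter on 82 against 3 UMIs. These were 2 calls among the 7 genes tested, in a comparison in which 5.57% of 7000 genes were called. Ccnd1 was 1.92-fold higher (1.502 to 2.48). Ccnd3 and Cdk4 were within 1.13-fold, and Cdkn2d and Rb1 had intervals that included equal levels. Cdk6, Cdkn1b and Cdkn2c had too few UMIs, and of these Cdk6 was 3.21-fold lower in SSC-like cells (1.51 to 7.16). Genes of cell division also differed here, Top2a from 279 CPM for SSC-like to 41.8 CPM for progenitor-like cells and Mki67 from 69.9 to 6.597 CPM, and their part in the differences of Ccnd2 and Cdkn1a was not tested. Without the barcode rich in Hba-a1 the count of calls was 1, as Ccnd2 lay just under 2-fold, at a log2 ratio of 0.93. The log2 ratio of Cdkn1a ran from 0.52, when genes of the S and G2M phases were left out of the clustering, to 3.90, the reported value, with cells scored as G1 left aside since only 2 of them were SSC-like and these held 0 Cdkn1a UMIs. That of Ccnd2 ran from 0.71 to 1.47 over the settings that gave both classes. Its upper end is that of cells scored as G1, where the 2 SSC-like cells held 25 Ccnd2 UMIs.

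Between the undifferentiated cells (SSC-like and progenitor-like together) and differentiating-like cells, 3 of 8 genes tested were called, against 13.3% of 8219 genes. Ccnd2 was 3.10-fold (2.75 to 3.49) and Cdk4 2.0996-fold (1.86 to 2.37) higher in undifferentiated cells, and Cdk6 was 4.38-fold (2.83 to 6.89) higher in differentiating-like cells. Ccnd1 was 1.42-fold higher in differentiating-like cells and Ccnd3 1.51-fold higher in undifferentiated cells. Cdkn1a, Cdkn2d and Rb1 were each within 2-fold, and Cdkn1b and Cdkn2c had fewer than 50 UMIs. The log2 ratio of Cdkn1a ran from 0.63 to 1.59 over the settings that gave a value, and so passed 2-fold in some. In Cdkn1a, SSC-like cells alone were 2.91-fold above differentiating-like cells (1.75 to 5.07), while progenitor-like cells held 3 UMIs against 19 in differentiating-like cells. With size factors in place of total UMIs the median of all genes moved by 0.17 on the log2 scale, and the 3 called genes kept their directions under every setting that gave a value. Cdk4 lay near the limit, with log2 ratios from 0.89 to 1.35 over these settings.

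The differentiating-like class consisted of 2 clusters that differed in most of these genes. The larger, of 101 cells, was led by Kit, and the smaller, of 32 cells, was led by Prss50 and Ly6k and was called differentiating-like from its markers without any of them among its 10 leading genes. The median depth was 8942 UMIs in the Kit-led and 12208 in the Prss50-led cluster. Thinning kept 68 of 101 cells of the former and 31 of 32 of the latter. Cdk6 itself was among the 10 leading genes of the Kit-led cluster. Between them 4 of 5 genes tested were called, against 17.4% of 4568 genes, and all 4 were lower in the Prss50-led cluster. Ccnd2 was at 246 CPM in the Kit-led and 7.39 CPM (3 UMIs) in the Prss50-led cluster, 33.3-fold lower (11.3 to 162). Cdk6 was at 47.7 CPM in the former and 4.92 CPM in the latter, Ccnd3 at 78.9 and 17.2 CPM and Cdk4 at 236 and 76.3 CPM. Ccnd1 was the exception with 145 and 116 CPM, a ratio whose interval included 1, and it made up 82.5% of the D-type cyclin UMIs of the Prss50-led cluster (70.1 to 91.3%), on 57 UMIs, against 30.8% in the Kit-led cluster. The inhibitors, each with fewer than 50 UMIs, were higher in the Prss50-led cluster, with Cdkn2d at 61.5 against 9.37 CPM (6.57-fold, 3.18 to 14.3), Cdkn2c at 34.5 against 8.59 CPM (4.01-fold, 1.69 to 9.76) and Cdkn1a at 27.1 against 6.25 CPM (4.33-fold, 1.59 to 12.4). Rb1 was at 17.2 and 18.0 CPM, and Cdkn1b held 1 UMI in each. Top2a was at 465 CPM in the Prss50-led and 232 CPM in the Kit-led cluster, and its part in these differences was not tested.

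**Figure D4:**
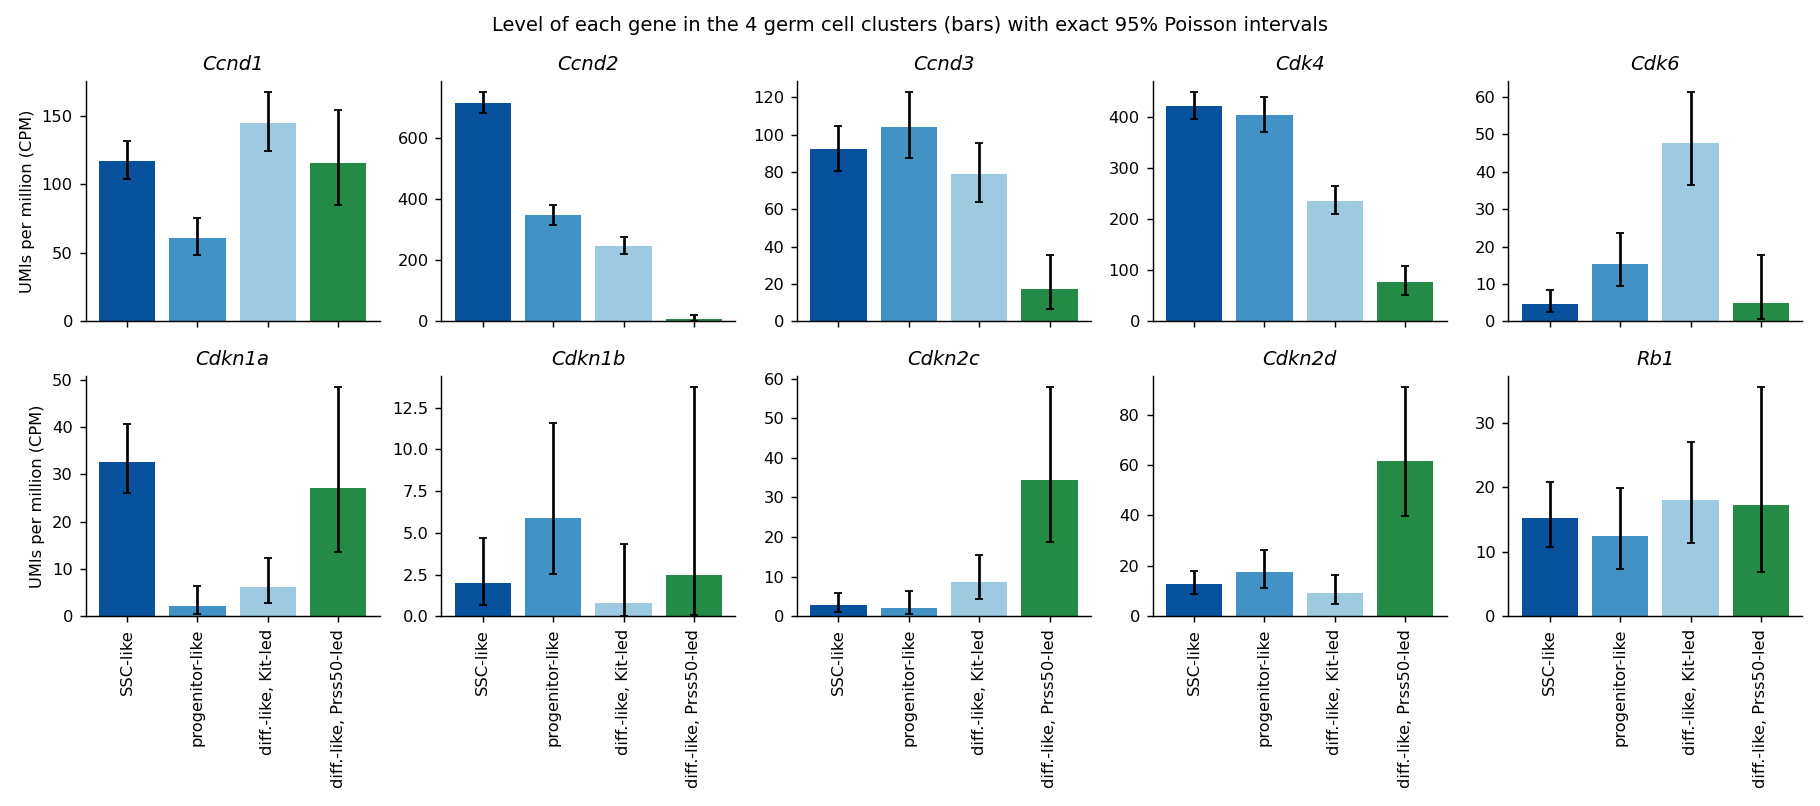
Level of each gene in CPM (bars from 0, with its own range for each gene) in the 4 germ cell clusters, with exact 95% Poisson intervals. Ccnd2 runs from 713 CPM in the SSC-like to 7.39 CPM in the Prss50-led cluster while Ccnd1 lies between 60.8 and 145 CPM, Cdk6 is highest in the Kit-led cluster, and Cdkn2c and Cdkn2d are highest in the Prss50-led cluster.

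Among somatic cells, Sertoli-like cells were compared with all others. Of 9 genes tested, 5 were called, in a comparison in which 36.4% of 8764 genes were called. Ccnd2 was 2.36-fold (2.16 to 2.58) and Cdk6 3.87-fold (2.53 to 6.07) higher in Sertoli-like cells. Ccnd3 was 7.56-fold (5.96 to 9.72), Ccnd1 3.87-fold (2.07 to 7.89) and Cdkn1a 23.2-fold (6.17 to 196) lower, the last on 2 UMIs. Of the 62 Ccnd1 UMIs in the other somatic cells, 31 were in macrophage-like cells and 18 in the unnamed cluster, and against stromal-like cells the ratio of Ccnd1 was 1.07 (0.403 to 3.03). Of the Cdkn1a UMIs in the other somatic cells, 37 were in macrophage-like and 22 in stromal-like cells. Peritubular myoid-like cells held 1, and against them the ratio of Cdkn1a was 0.645 (0.0336 to 38.1). Against stromal-like cells alone, Ccnd3 was 9.79-fold lower (7.67 to 12.6) and Cdk6 15.6-fold higher (5.86 to 58.4). Cdkn1b, Cdkn2c, Cdkn2d and Cdk4 were within 2-fold, and Rb1, with 47 UMIs, was 4.37-fold higher in Sertoli-like cells (2.17 to 9.51). The size factors moved the median log2 ratio of all genes by -0.37 here, and Cdk4 then changed direction, from 0.35 to -0.01. Over all settings the log2 ratio of Ccnd2 ran from 0.61 to 1.285 and that of Cdk6 from 0.97 to 2.32. Both thus fell under 2-fold in some settings, whereas Ccnd3, Ccnd1 and Cdkn1a stayed beyond 2-fold.

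Stromal-like cells were also compared with peritubular myoid-like cells, both mesenchymal. None of the 5 genes tested was called, against 12.8% of 5082 genes, and a count this low among 5 genes says little about them. Over the settings tried the count ran from 0 to 3. Ccnd3 was 1.45-fold higher in stromal-like cells (1.22 to 1.74), Cdkn2d 1.89-fold higher (1.07 to 3.58) and Ccnd2 1.19-fold lower (1.02 to 1.39), whereas Cdk4 and Cdkn2c had intervals that included equal levels. The other 5 genes had fewer than 50 UMIs, and of these Cdkn1a was 9.92-fold higher in stromal-like cells on 22 UMIs against 1 (1.60 to 410).

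Cells were also scored for the S and G2M phases from the transcripts of 43 and 52 phase genes, none of them among the 10 described here. Of Sertoli-like cells 199 were scored as G1, 8 as S and 48 as G2M, of stromal-like cells 165, 7 and 14, and of peritubular myoid-like cells 82, 5 and 7. Mki67 and Top2a are themselves among the G2M genes, so their levels are no check of the calls. Germ cells gave no comparison of this kind, since 2 of 116 SSC-like and 0 of 133 differentiating-like cells were scored as G1, and 48 of 75 progenitor-like cells had a score within 0.05 of the cut.

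In Sertoli-like and stromal-like cells, Cdkn2c and Cdkn2d were highest in cells scored as G2M, and few cells were scored as S. Sertoli-like cells had 11.8 CPM of Cdkn2c when scored as G1 (20 UMIs), 13.1 CPM when scored as S (1 UMI) and 177 CPM when scored as G2M (93 UMIs). Their levels of Cdkn2d in the same order were 40.1, 52.3 and 101 CPM. With S and G2M pooled, these were 2 calls among 6 genes tested, against 4.77% of 5719 genes. After thinning, 52.9% of Sertoli-like cells scored as S or G2M and 4.89% of those scored as G1 had a UMI of Cdkn2c, and the median depths before thinning were 10326.5 and 8124 UMIs.

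Stromal-like cells had 17.8 CPM of Cdkn2c when scored as G1, 23.3 CPM when scored as S (2 UMIs) and 316 CPM when scored as G2M (49 UMIs). Their levels of Cdkn2d were 15.7 CPM for G1 and 264 CPM for G2M, with 0 UMIs in the 7 cells scored as S. These were 2 calls among 5 genes tested, again with S and G2M together, against 11.3% of 3855 genes. Peritubular myoid-like cells had 26.2 CPM of Cdkn2c for G1, 114 CPM for S (7 UMIs) and 384 CPM for G2M (26 UMIs), on 49 UMIs, 1 short of the minimum, and held 2, 2 and 11 UMIs of Cdkn2d. Cells of these classes scored as S were 8, 7 and 5, so levels in S rest on few UMIs.

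In Sertoli-like and stromal-like cells, Ccnd2 ran in opposite directions in S and G2M. It was at 636 CPM in Sertoli-like cells scored as G1, 954 CPM for S (748 to 1200) and 459 CPM for G2M (403 to 521). Stromal-like cells had 287 CPM for G1, 607 CPM for S (453 to 796) and 90.2 CPM for G2M (49.3 to 151). With S and G2M pooled, the difference from G1 was less than 2-fold in both classes. In peritubular myoid-like cells Ccnd2 was the 1 call among 3 genes tested, against 11.8% of 1871 genes, with 388 CPM for G1, 195 CPM for S and 44.3 CPM for G2M. Cdk4 was at 317, 667 and 385 CPM in Sertoli-like cells and at 270, 467 and 464 CPM in stromal-like cells, for G1, S and G2M in that order.

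**Figure D5:**
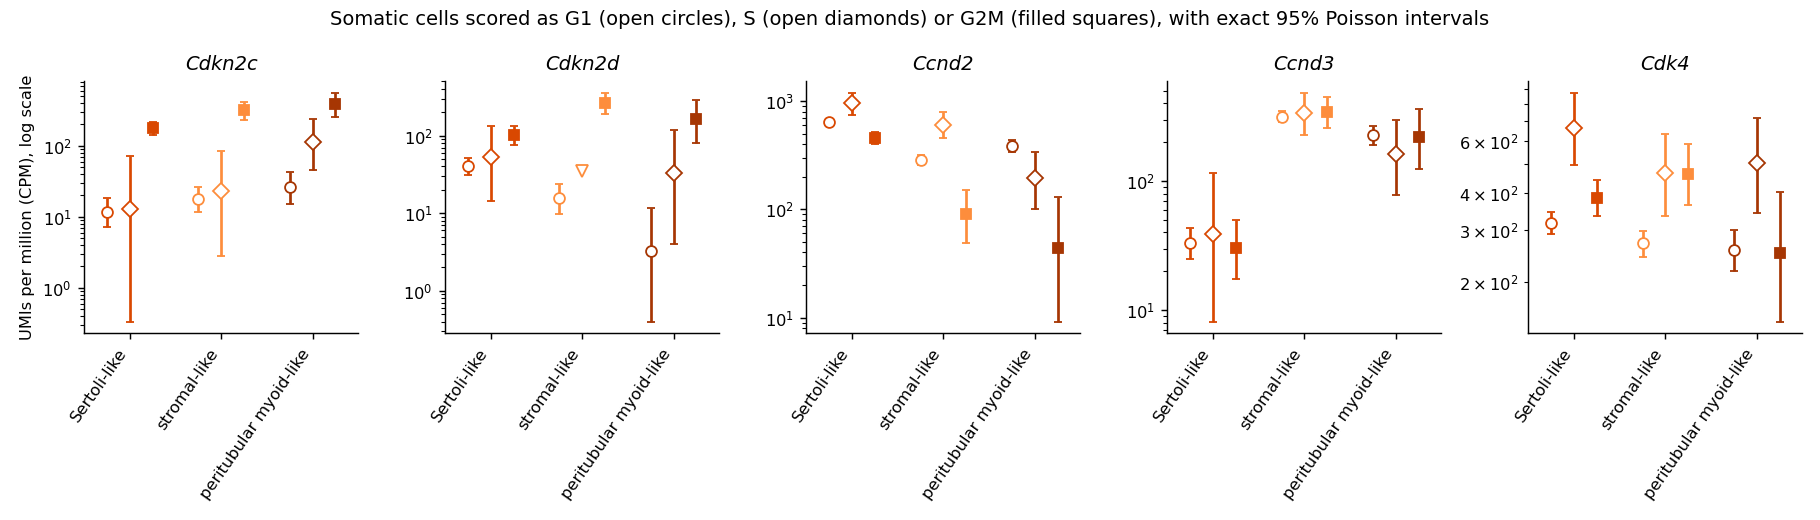
Level of 5 genes in CPM (log scale, with its own range for each gene) in somatic cells scored as G1 (open circles), S (open diamonds) and G2M (filled squares), with exact 95% Poisson intervals. The open triangle for Cdkn2d marks the level of 3 counts in place of 0 UMIs. Cdkn2c and Cdkn2d are highest in G2M in all 3 classes, Ccnd2 is lowest in G2M, and the intervals of Ccnd3 overlap in each class.

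The Sertoli-like clusters also differed in these genes. In the cluster of 44 cells with most Mki67 (197 CPM), Cdkn2c was at 177 CPM, while in the clusters of 132 and 79 cells, with Mki67 at 6.16 and 15.7 CPM, it was at 14.96 and 22.8 CPM. Cdkn2d was at 94.04 CPM in the first and at 31.7 and 65.5 CPM in the other two. Ccnd2 ran in the other direction, with 418 CPM in the first against 592 and 752 CPM, and Cdk6 was level at 39.4, 35.2 and 41.3 CPM. These clusters and the phase scores rest on transcripts of the same cells, so they are not separate evidence.

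The rest of the pathway was followed in a list of 24 further genes. Between germ and somatic cells, 9 of 22 tested were higher and 1 lower in germ cells, where 50.7% of all genes were called. Ccne1 and Ccne2, the E-type cyclins that act after the D-type cyclins, were 5.99-fold (3.67 to 10.3) and 4.25-fold (2.78 to 6.72) higher in germ cells, and Rbl2 (p130, a relative of RB1 typical of resting cells) was 9.92-fold lower (4.56 to 25.6), with 1.26 against 12.5 CPM. Rbl1 (p107) was at 8.46 and 8.21 CPM. A larger share of germ than somatic cells was scored as S or G2M. The part of phase in the differences of Ccne1, Ccne2 and Rbl2 was not tested. Germ cells scored as S had 31.6 (SSC-like), 44.3 (differentiating-like) and 5.09 CPM (progenitor-like) of Ccne1. Stromal-like, peritubular myoid-like and Sertoli-like cells scored so had 35.0, 32.6 and 0 CPM, on 3, 2 and 0 UMIs. For Ccne2 these levels were 15.8, 57.2 and 12.7 CPM, then 46.7, 65.1 and 13.1 CPM on 4, 4 and 1 UMIs. Within the germ line, SSC-like cells had 9.58 CPM of Ccne2, progenitor-like cells 6.597 CPM and differentiating-like cells 51.0 CPM, and the levels of Ccne1 in the same order were 19.2, 3.67 and 38.5 CPM. Between SSC-like and progenitor-like cells 3 of 16 listed genes tested were higher and 0 lower (5.57% of all genes called), and between undifferentiated and differentiating-like cells 1 of 18 was higher and 3 lower (13.3% of all genes called). E2f1 was at 27.7 CPM in undifferentiated and 27.3 CPM in differentiating-like cells.

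The remaining CIP/KIP inhibitor, Cdkn1c (p57, an imprinted gene), was uneven both among somatic classes and between stages of the germ line. Stromal-like cells had 332 CPM (305 to 361), progenitor-like cells 94.6 CPM, SSC-like cells 81.9 CPM, peritubular myoid-like cells 36.5 CPM and differentiating-like cells 34.4 CPM, while Sertoli-like cells held 3 UMIs and macrophage-like cells 1. Its level in stromal-like cells was 9.10-fold above that in peritubular myoid-like cells (6.19 to 13.9), the 1 call among 7 listed genes tested between these classes (12.8% of all genes called). In Sertoli-like cells 3 of 14 listed genes tested were higher and 1, Cdkn1c, was lower than in other somatic cells (36.4% of all genes called). Cdkn1c was thus the most abundant CIP/KIP transcript in stromal-like and peritubular myoid-like cells and in all 3 germ classes. Cdkn1b was the most abundant in Sertoli-like cells and Cdkn1a in macrophage-like cells.

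For each gene, the genes with the most similar levels over the 7 named classes were found by Pearson's r of log2(CPM + 10) among 9009 genes with at least 100 UMIs. The classes share 1 library and differ in depth, and 7 points are few, so the values describe likeness only. Ccnd1 was nearest to Psma5 (r = 0.99) and Mrpl42, Ccnd2 to Rad52 (r = 0.99) and Zfp512, and Ccnd3 to Dlc1 (r = 0.97) and Eva1b. The nearest genes were Ptpn13 and Elk4 for Cdk4 (r = 0.98 and 0.96) and Ddb1 and Alg11 for Cdk6 (r = 0.96 for each). The inhibitors were nearest to Arhgef2 and Max (Cdkn1a, r = 0.96 and 0.95), Acadsb and Mccc2 (Cdkn1b, r = 0.98 for each), Acadl and Tpgs1 (Cdkn2c, r = 0.99 and 0.98), and Btbd2 and Bmyc (Cdkn2d, r = 0.98 for each). For Rb1 they were Uba6 and Ubl5 (r = 0.996 and 0.99), both of them lower in stromal-like and peritubular myoid-like cells than elsewhere. With a pseudocount of 1 in place of 10, both genes remained the nearest for Cdk4, Cdk6, Cdkn1a and Cdkn2d, 1 of 2 for Ccnd1, Ccnd2, Ccnd3, Cdkn1b and Cdkn2c, and neither for Rb1, for which Arl6ip4 and Cc2d1a took their place. None of the 20 genes named by this measure was a member of the 10 or of the 24 listed genes.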

How the data were processed

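Per the labels, single cells were captured with v2 chemistry. Per the submitters' processing notes, the authors used Cell Ranger 2.1.0 and mm10 (GRCm38); the deposited values are raw UMI counts per gene and barcode, without normalization. Barcodes were removed that had fewer than 500 genes (10 barcodes), mitochondrial UMIs of 10% or more (36) or a scrublet doublet call (4; scanpy 1.11.5, expected rate 0.01). With Seurat 5.3.0 in R 4.3.3, counts were log-normalized to 10000, mean.var.plot variable genes were chosen, and clusters were formed from 14 components at a resolution of 0.5. Germ cells were clustered again. Clusters took the name whose marker list had the highest mean excess over the other cells, with at least 3 markers in 10% of cells; the unnamed somatic cluster scored highest for T cell markers.

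The variable genes would have held 4 of the 34 genes of the members and the pathway list in the first step (Cdkn1a, Cdkn1c, Cdkn2c, Cdkn2a) and 7 in the second (Cdkn1a, Ccnd2, Cdkn1c, Ccne2, Cdk6, E2f4, Cdkn2d). Levels have exact Poisson intervals, ratios exact conditional binomial intervals and shares exact Clopper-Pearson intervals (scipy 1.17.1). A class with 0 UMIs was set to 3 counts in ratios. No p-values were computed. The code was tested on simulated data. The genes chosen to be given with values are the 10 members, 6 of the 24 listed genes, and the 2 genes most like each member, besides markers of cells and of division. Cdkn2a and Cdkn2b were added after their values were seen. The members and lists were chosen with earlier results of these data known. There were 21 other settings tried, and 3 more were chosen after the data had been seen: filters, variable genes, components, resolution, choice of germ cells, a count split, scaling, minimum and pseudocount.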

Additional observations from a re-analysis of the deposited data

How the results depend on the processing

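No paired analysis was possible because the data come from 1 library. Against the reported 2 calls between SSC-like and progenitor-like cells, the count was 1 with at least 200 or 1000 genes per cell, with S and G2M genes left out of clustering, at resolution 1.2, with germ cells taken by a UMI of Ddx4 or Dazl, without the barcode richest in Hba-a1, without mitochondrial and ribosomal protein genes and as a mean over cells. It was 0 under the count split and 4 with no minimum of UMIs. Sertoli-like against other somatic cells (reported 5) gave 2 with a mitochondrial limit of 5% and 3 under the count split, undifferentiated against differentiating-like cells (reported 3) gave 5 with no minimum, and stromal-like against peritubular myoid-like cells (reported 0) gave 2 with vst variable genes, 1 as a mean over cells and 3 with no minimum. The germ against somatic count stayed between 3 and 5. The Ccnd2 share of D-type cyclin UMIs moved outside its interval in progenitor-like cells to 63.0% (no mitochondrial limit), 63.1% (vst), 62.2% (without S and G2M genes), 72.5% (resolution 1.2), 71.3% (count split) and 63.7% (cells scored as G1). In differentiating-like cells it moved to 41.6% (10 components), 43.0% (resolution 1.2), 43.3% (Ddx4 or Dazl) and 40.2% (count split), in SSC-like cells to 79.7% (20 components) and 80.1% (resolution 1.2), in stromal-like cells to 52.1% (limit of 5%) and in peritubular myoid-like cells to 54.8% (vst). Log2 ratios changed sign for Ccnd2 between germ and somatic cells (from 0.19 to -0.19 with the limit of 5%, -0.059 as a mean over cells and -0.38 in cells scored as G1), for Cdkn1a there (to -1.22 with the limit of 5% and -3.03 in cells scored as G1, on 1 germ cell UMI), for Ccnd2 and Cdkn2d between stromal-like and peritubular myoid-like cells (to 0.065 with the limit of 5% and -2.02 with vst), and for Cdk4 in Sertoli-like cells (to -0.014 with size factors). Other ratios took both signs over the settings. Between SSC-like and progenitor-like cells these were Ccnd3 (-0.27 to 0.55), Cdk4 (-1.04 to 0.12), Cdkn2d (-0.66 to 2.21) and Rb1 (-0.41 to 3.02). Cdk6 did so between germ and somatic cells (-0.46 to 0.46), and Cdkn1b (-0.42 to 0.12) and Cdkn2c (-0.58 to 0.17) in Sertoli-like cells. So did Rb1 between undifferentiated and differentiating-like cells (-0.38 to 0.21) and Cdk4 between stromal-like and peritubular myoid-like cells (-0.20 to 0.22). The cause of these changes was not tested. The limit of 5% left 442 cells and no SSC-like, progenitor-like or differentiating-like class. Resolution 0.3 gave no SSC-like or progenitor-like class, and 10 components gave no progenitor-like class. With 20 components, 78 cells were SSC-like and 116 were progenitor-like. Of the 204 comparisons of a count or share with its reported value, 174 stayed within 1.5 times or within the interval. Leaving out the germ cell cluster of low depth, leaving out the unnamed somatic cluster, and keeping cells scored as G1 were added after the data had been seen.

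Low counts limit what can be said of Cdkn1b and Cdkn2c in germ cells, with 15 and 35 UMIs. The same holds for Rb1 in stromal-like and peritubular myoid-like cells, with 3 and 0. Intervals cover counting error only, so the spread between mice is unknown.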
